A study of Mus musculus with 4 samples.

Results

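The mouse mitochondrial genome is a small circular DNA, and its 37 annotated genes were followed here in regulatory T cells (Treg). They were taken as every gene of the deposited count table whose Ensembl identifier maps to a symbol that starts with mt-, which gave 37 of 38924 genes. Of these, 13 encode proteins, 2 encode the ribosomal RNAs and 22 encode tRNAs. The study sequenced RNA of resting Treg and of activated Treg sorted from mouse spleen, with 2 libraries in each group, and its title is about how active Foxo1, a transcription factor, is in these cells. The labels give the same gate for both groups, CD4+Foxp3+CD62LhiCD44lo, and separate the groups by the words resting and activated alone. They name no strain, age, treatment, engineered allele or time, and they call the animals biologically independent. Libraries were made from total RNA with SMART-seq v4, a kit for very small inputs that primes on poly(A) tails and amplifies by PCR without molecular identifiers. The columns of the count table name the group and not the animal, so the 2 libraries of a group are told apart by the letters A and B, which pair nothing across groups. Where a group has a pair of values, that of its A library comes first; 4 values in a row give the resting pair and then the activated pair.

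The 13 proteins are all core parts of oxidative phosphorylation, the chain that moves electrons to oxygen and makes ATP: subunits of complex I (NADH dehydrogenase), complex III (cytochrome b), complex IV (cytochrome c oxidase) and complex V (ATP synthase). All other subunits are encoded in the nucleus. Both strands of the genome are transcribed as long precursors, and the tRNAs that lie between the other genes are cut out. The rRNAs and most of the released mRNAs receive short poly(A) tails. In Treg, oxidative metabolism and mitochondrial respiration are known to support suppressive function.

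Library totals ran from 20282062 to 31851982 counts, and 18928 to 23398 genes had a count. The 5 T cell markers Cd3e, Cd3d, Cd4, Foxp3 and Trac were detected in every library, at 3823 to 5530 CPM in sum, where CPM expresses a count relative to its library's total, adjusted with trimmed-mean (TMM) factors. Transcripts of other spleen cells were present in every library. The 8 red pulp macrophage markers, among them C1qb, Vcam1 and Slc40a1, summed to 762 CPM in resting A and 13.4 in resting B, and to 650 and 26.4 CPM in the activated pair, with none at 0 in any library, so that these markers divided the libraries within each group. Of the 10 lists for other cell types, 7 summed higher in both activated libraries than in both resting ones: plasmacytoid and conventional dendritic cells, B cells, plasma cells, CD8 T cells, NK cells and neutrophils. The neutrophil sums were near 0, at 0.0486 and 0 CPM in the resting libraries and 1.01 and 0.0493 in the activated ones. Resting A and activated B were thus level for neutrophils. The 10 plasmacytoid dendritic cell markers summed to 193 and 219 CPM in the resting libraries and to 1283 and 479 CPM in activated A and B, with only Klk1 at 0, in resting B. Conventional dendritic cell markers summed to 10.9 and 7.50 CPM in the resting libraries and to 79.6 and 28.5 CPM in the activated ones. CD8 T cell markers summed to 30.4 and 27.2 CPM, then 81.7 and 35.7, and NK cell markers to 4.27 and 6.33 CPM, then 12.8 and 16.5. The part of these cells in the differences between the groups was not tested. In bulk RNA, fewer cells of a type and less RNA per cell cannot be told apart.

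One block of the genome had almost no counts. The 4653 bases of chrM:6390-11042 (mm10) hold 11 members, from mt-Ts1 to mt-Nd4l, and parts of 2 more, mt-Co1 and mt-Nd4. On chromosome 1, at chr1:24611535-24616197 on the minus strand, GENCODE M21 annotates 7 unprocessed pseudogenes in the same order, which together align to 4140 bases of the mitochondrial genes with 2 mismatches. For 5 of the 7 the aligned sequence is identical. Only Gm10222, the copy of mt-Nd4l, has a place in the count table used here, with 2, 28, 0 and 19 counts; the other 6 copies were not analysed here. The sources used here do not give how reads that match more than 1 place were treated, and the part of this in the low counts was not tested.

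The copied sequence is shown for the genes that mark its reach, from GENCODE M21 transcripts on mm10, 5′ to 3′. The first 60 bases of mt-Co2 (chrM:7013-7696), the gene of a core cytochrome c oxidase subunit, are the same in its copy Gm28661:
mt-Co2: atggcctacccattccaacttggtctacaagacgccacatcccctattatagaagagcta
Gm28661: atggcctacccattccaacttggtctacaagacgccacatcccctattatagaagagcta
The first 60 bases of mt-Nd3 (chrM:9459-9806), the gene of a small complex I subunit, differ from its copy Gm28438 at the capital letter, T3C when counted from the first base of mt-Nd3, and the aligned 345 bases hold no other mismatch:
mt-Nd3: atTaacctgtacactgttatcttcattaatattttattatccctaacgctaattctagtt
Gm28438: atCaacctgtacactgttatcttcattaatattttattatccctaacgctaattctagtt
The copy of mt-Co1, Gm29216, starts at base 1063 of the gene and has its only mismatch, A1066T, in capitals here:
mt-Co1: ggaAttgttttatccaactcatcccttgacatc
Gm29216: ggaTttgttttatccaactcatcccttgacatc
At the other end, bases 837 to 916 of mt-Nd4 run out of the copied stretch, and the capitals mark the bases beyond the copy:
mt-Nd4: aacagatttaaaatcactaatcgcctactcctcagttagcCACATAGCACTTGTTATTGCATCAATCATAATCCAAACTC

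Inside the stretch, mt-Co2 had 2, 3, 2 and 2 counts. The overlapping ATP synthase genes mt-Atp8 and mt-Atp6 had 0, 0, 1 and 0 counts and 3, 6, 3 and 1 counts. The cytochrome c oxidase gene mt-Co3 had 21, 33, 14 and 19 counts, and the complex I gene mt-Nd4l had 4, 2, 9 and 0. All 4 libraries were thus near 0 for these 5 mRNAs, in both groups. The exception was mt-Nd3, with 1387, 1927, 1875 and 1186 counts. Of the 299 windows of 50 bases in mt-Nd3, 6 do not occur in an annotated copy, against 0 of 635 in mt-Co2 and 1 of 735 in mt-Co3. The windows did not order the counts, since mt-Nd4l had 3 of 248 and mt-Atp6 3 of 632 such windows, with at most 9 and 6 counts in a library. The 155 windows of mt-Atp8 occur in no annotated copy, and its counts were at most 1. Most of mt-Atp8 lies between the annotated copies of mt-Co2 and mt-Atp6. The bases of chromosome 1 between copies were not compared, so its windows cannot tell whether it is copied there. Leaving out mt-Nd3, the 10 other members inside the stretch had at most 33 counts in any library and 144 in all 4 together. The 5 mRNA genes wholly outside it had between 3178 and 126304 counts per library. The part of the copies in these low counts was not tested. With so few counts, levels of mt-Co2, mt-Co3, mt-Atp6, mt-Atp8 and mt-Nd4l cannot be read from this table in either group, the complex V genes have no usable value, and the complex IV value is that of mt-Co1 alone.

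**Figure D1:**
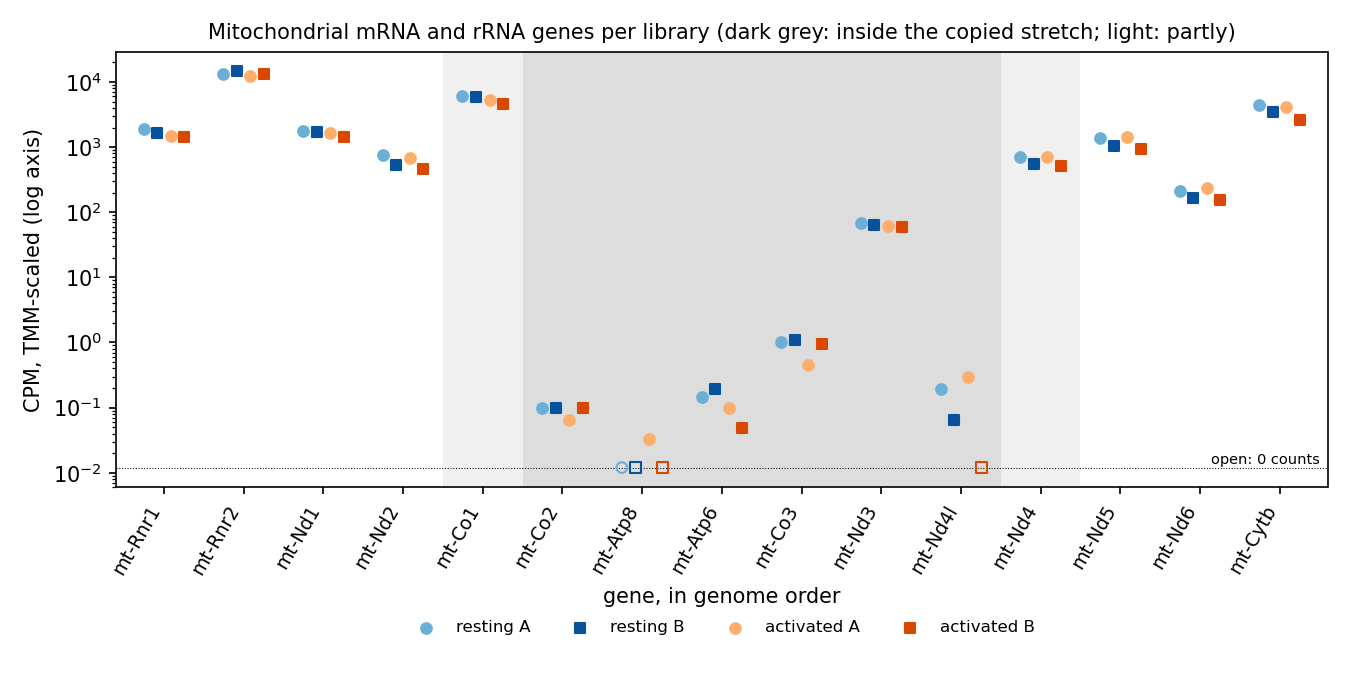
CPM (TMM-scaled, log axis) of the 13 mRNA and 2 rRNA genes in genome order, with a point for each of the 4 libraries and open symbols for 0 counts. The genes between mt-Co1 and mt-Nd4, shaded dark, lie inside the stretch copied on chromosome 1, and all of them except mt-Nd3 sit near or below 1 CPM in the resting and the activated libraries.

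Copies elsewhere took few counts. Gm13340, a copy of mt-Co1 on chromosome 2 with 97.6% identity, had 99, 143, 146 and 75 counts, and its neighbour Gm13341, a copy of mt-Co2 with 95.9% identity, had 39, 54, 72 and 26. Gm13341 thus had more counts than mt-Co2 itself in every library. Both are reported as uncertain, as are mt-Co1, mt-Nd3 and mt-Nd4, because reads shared between near-identical copies could have been assigned to either.

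The genes of the mitochondrial genome took 3.05% and 2.87% of the counts in the resting libraries and 2.96% and 2.57% in the activated ones. The 95% Wilson intervals reach at most 0.00741 percentage points to either side, which covers counting error only. The group means were 2.96% ± 0.130 (SD, n = 2) for resting and 2.76% ± 0.275 (SD, n = 2) for activated Treg, and the groups overlapped, with activated A between the resting libraries. An exact two-sided permutation test gave p = 0.667, and with 2 libraries against 2 it cannot go below 0.333. Leaving out activated replicate B brought the difference from -0.197 to -0.0028 percentage points, so the difference rested on that library.

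Ribosomal RNA genes took 1.51% and 1.57% of all counts in the resting libraries and 1.46% and 1.48% in the activated ones. The groups did not overlap, with the activated mean lower by 0.066 percentage points (exact permutation p = 0.333, the smallest possible). The mRNA genes took 1.54% and 1.30% in the resting libraries and 1.49% and 1.08% in the activated ones, so the A library was the higher in each group and the groups overlapped. The tRNA genes, which are short and whose mature forms carry no poly(A) tail, made up 0.108% and 0.133% of the mitochondrial counts in the resting libraries and 0.105% and 0.143% in the activated ones.

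Within the mitochondrial counts, the rRNA share was 49.4% and 54.7% in the resting libraries and 49.4% and 57.7% in the activated ones. The resting mean of 52.1% ± 3.73 and the activated mean of 53.6% ± 5.88 (SD, n = 2 each) differed by 1.52 percentage points, less than the gap between the libraries of either group (exact permutation p = 1.0). The direction of that difference depended on single libraries: it was -1.12 without resting replicate A and -2.64 without activated replicate B. The libraries with the lower rRNA share, resting A and activated A, were those with the higher red pulp macrophage sums given above, and the part of those cells in the rRNA share was not tested.

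**Figure D2:**
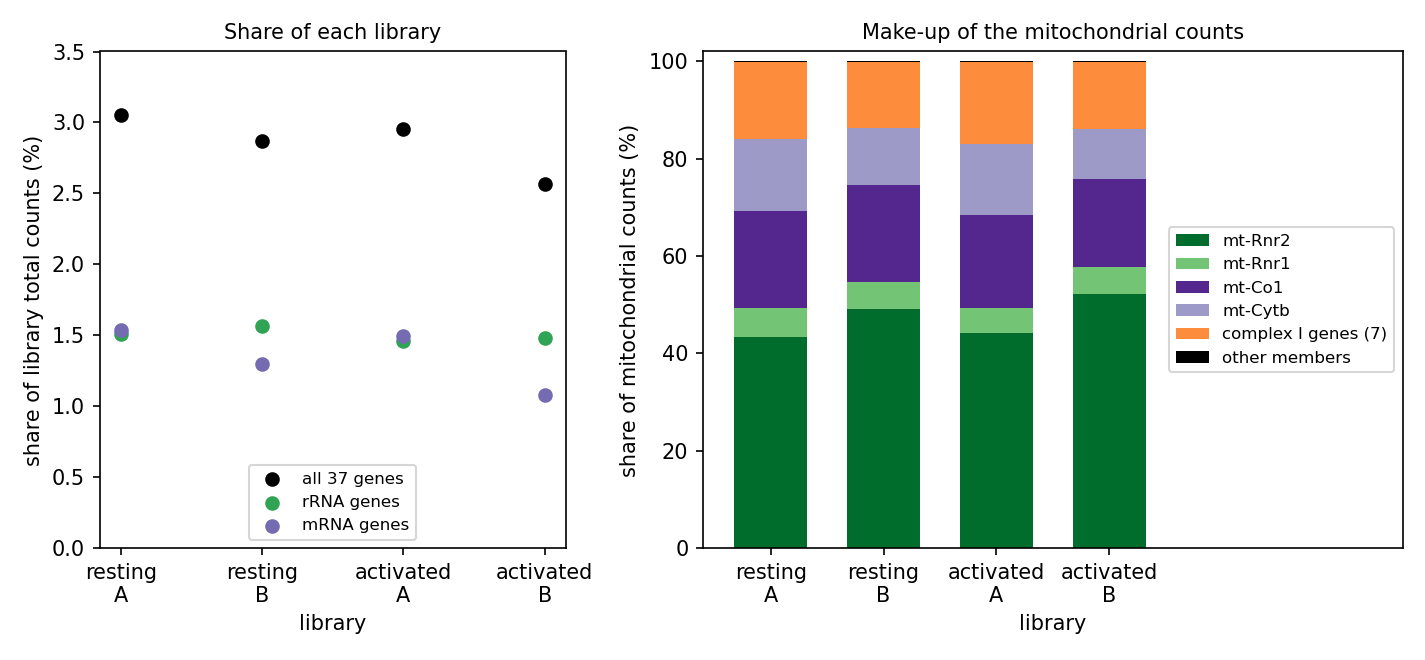
Left, the share of each library's total counts, in percent, taken by all 37 mitochondrial genes, by the rRNA genes and by the mRNA genes; right, the make-up of the mitochondrial counts, in percent, as stacked bars per library. The rRNA share is 49.4% in resting A and in activated A and higher, 54.7% and 57.7%, in resting B and activated B, so the bars differ more within a group than between the groups.

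mt-Rnr2 (ENSMUSG00000064339, chrM:1094-2675), the large-subunit ribosomal RNA, was the most abundant member, at 13277 and 14618 CPM in the resting and 12527 and 13388 CPM in the activated libraries. The activated range crossed the resting range, with a log2 fold change, activated over resting, of -0.11 (SE 0.15, edgeR adjusted p = 0.975). mt-Rnr1 (chrM:70-1024), the small-subunit ribosomal RNA, had 1885 and 1678 CPM in the resting libraries and 1482 and 1440 in the activated ones. The groups did not overlap, and the lower activated level gave a log2 fold change of -0.29 (SE 0.16), which did not pass the test (edgeR adjusted p = 0.768). The ratio of mt-Rnr2 to mt-Rnr1 counts was 7.04 and 8.71 in the resting libraries and 8.45 and 9.30 in the activated ones, with overlapping groups.

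mt-Co1 (ENSMUSG00000064351, chrM:5328-6872), the catalytic core of cytochrome c oxidase, had 6104 and 5907 CPM in the resting libraries and 5376 and 4621 CPM in the activated ones. The groups did not overlap, and the log2 fold change of -0.26 (SE 0.16) did not pass the test (edgeR adjusted p = 0.806). mt-Cytb (ENSMUSG00000064370, chrM:14145-15288), cytochrome b of complex III, had 4482 and 3518 CPM in the resting libraries and 4127 and 2651 in the activated ones. Here the groups overlapped, because the library lettered A was the higher in each, and the log2 fold change was -0.24 (SE 0.27, edgeR adjusted p = 0.954). Without activated replicate B the mt-Cytb value was 0.04, so its direction rested on that library.

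The complex I genes, whose products form the membrane arm of NADH dehydrogenase, divided into some whose groups overlapped and some whose groups did not. mt-Nd1 (chrM:2751-3707) had 1782 and 1680 CPM in the resting libraries and 1666 and 1431 in the activated ones, a narrow separation with a log2 fold change of -0.16 (SE 0.17). mt-Nd3, whose level is uncertain because it lies inside the copied stretch, likewise separated by little. It had 67.3 and 62.8 CPM in the resting libraries and 61.3 and 58.5 in the activated ones, and a log2 fold change of -0.12 (SE 0.17). Neither passed the test, with edgeR adjusted p-values of 0.952 for mt-Nd1 and 0.974 for mt-Nd3.

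mt-Nd2 (chrM:3914-4951) had 751 and 532 CPM in the resting libraries and 688 and 460 in the activated ones. mt-Nd4 (chrM:10167-11544) had 702 and 547 CPM in the resting libraries and 704 and 508 in the activated ones. mt-Nd5 (chrM:11742-13565) had 1376 and 1040 CPM, then 1445 and 926. In these 3 genes the A library of each group was the higher and the groups overlapped. mt-Nd6 (chrM:13552-14070), the only mRNA on the minus strand, had 212 and 166 CPM in the resting libraries and 236 and 157 in the activated ones, the same order. Because the strand setting of the counting is not given, mt-Nd6 reads cannot be told apart from those of the opposite-strand precursor. The log2 fold changes of mt-Nd2, mt-Nd4, mt-Nd5 and mt-Nd6 were -0.16 (SE 0.28), -0.04 (SE 0.24), -0.03 (SE 0.28) and 0.06 (SE 0.27), none of which passed the test (edgeR adjusted p from 0.990 to 0.997). Their signs changed when single libraries were left out, and those of mt-Nd4 and mt-Nd5 also changed without TMM scaling.

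Of the 37 members, 27 had enough counts to be tested: 9 mRNAs, both rRNAs and 16 tRNAs. No member was called at an edgeR adjusted p under 0.05, where the background over all 14235 genes tested was also 0 genes (0.0%). At an unadjusted p under 0.05 there were 0 members, against 8.91% of all genes, and the smallest unadjusted value among the members was 0.131, for mt-Rnr1. DESeq2 called 3.11% of all genes and 0 members, whose smallest DESeq2 adjusted p was 0.900. The 9 tested mRNAs had a median log2 fold change of -0.16, beside -0.0072 over all genes tested, with 8 below 0 and 1 above. They include mt-Co3, with at most 33 counts in a library and a log2 fold change of -0.55 (SE 0.60, edgeR adjusted p = 0.952). Without mt-Co3, in a comparison added after the values were seen, the median was -0.14 and 7 of 8 were below 0. With mt-Co3 kept and activated replicate B left out, the median of the 9 was 0.04. In the mitochondrial mRNAs, rRNAs and tRNAs that were tested, 9 of 27 (33.3%) had groups that did not overlap, near the 37.2% of all genes. In all 9 the activated libraries were the lower, an order seen in 17.4% of all genes, and in 0 the higher, seen in 19.8%. Without mt-Co3 these were 8 of 26. These members lie on shared precursors and the same 4 libraries, so they are not separate observations.

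The gaps within the groups were as large as the differences between them. For the 11 tested mRNAs and rRNAs the median absolute log2 ratio of the A to the B library was 0.17 within resting and 0.47 within activated Treg, beside a median absolute log2 fold change of 0.16 between the groups. Over all genes tested the medians were 0.33, 0.41 and 0.24. Leaving aside mt-Co3, the larger gaps were in mt-Nd2 and in the genes from mt-Nd4 to mt-Cytb. For mt-Cytb the log2 ratio of A to B was 0.35 in resting and 0.64 in activated Treg, for mt-Nd5 0.40 and 0.64, and for mt-Nd2 0.50 and 0.58. mt-Rnr2 ran the other way, at -0.14 and -0.10. These gaps followed the same libraries as the red pulp macrophage sums, and the part of those cells in them was not tested.

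**Figure D3:**
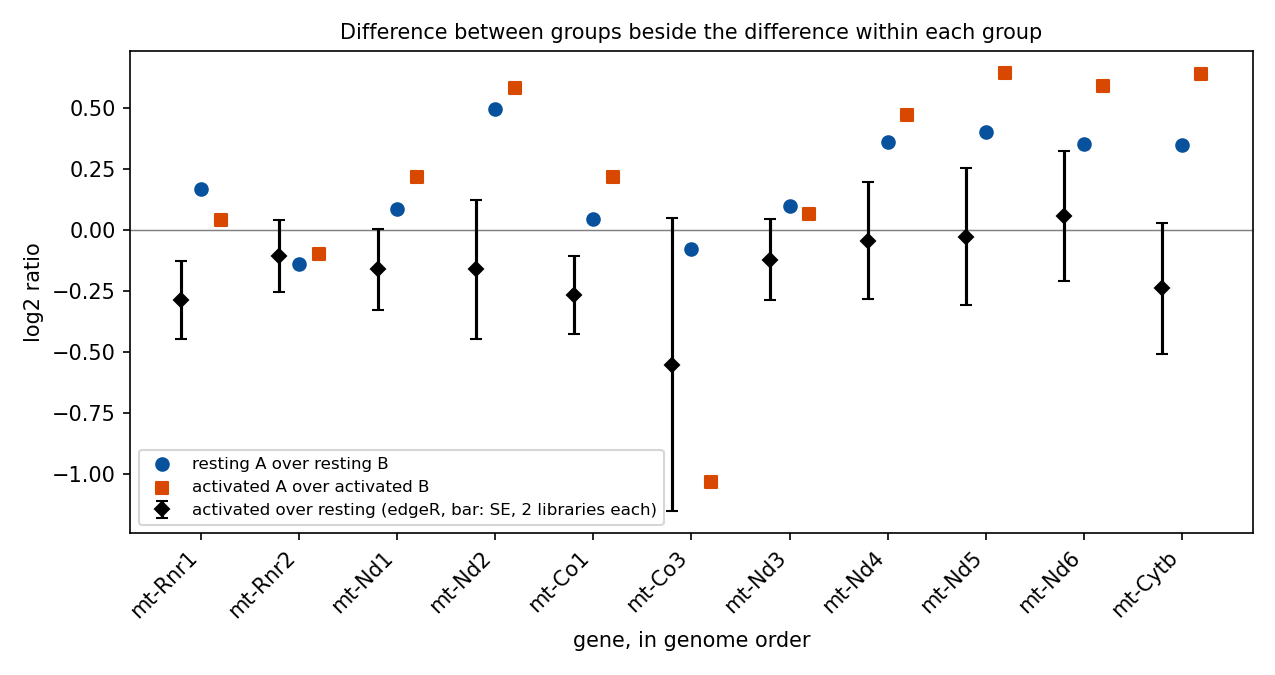
Log2 ratios for the 11 tested mRNA and rRNA genes in genome order: diamonds, activated over resting with the edgeR SE; circles, resting A over resting B; squares, activated A over activated B. For mt-Nd2, mt-Nd4, mt-Nd5, mt-Nd6 and mt-Cytb the circles and squares lie between 0.35 and 0.64, farther from 0 than the diamonds; the square of mt-Co3, a gene with at most 33 counts, lies at -1.03.

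The balance among the mRNAs gave a small difference in favour of complex I. The 7 complex I genes took 31.6% and 29.9% of the mitochondrial mRNA counts in the resting libraries and 33.6% and 32.7% in the activated ones. Both activated libraries were above both resting ones, with means of 30.8% ± 1.17 and 33.1% ± 0.585 (SD, n = 2 each) and an exact permutation p of 0.333, the smallest that 2 libraries against 2 allow. The plasmacytoid dendritic cell marker sums of 193 and 219, then 1283 and 479 CPM, and the conventional dendritic cell sums of 10.9 and 7.50, then 79.6 and 28.5 CPM, were also higher in both activated libraries, and their part in the share was not tested. The difference of 2.38 percentage points became 2.47 per kilobase of gene length, and it ran from 1.55 to 3.21 when each library was left out. Over the 5 genes wholly outside the copied stretch it was 2.56, with shares of 47.9% and 49.3%, then 49.4% and 52.9%. There the groups separated narrowly, with an activated SD of 2.42. Besides complex I genes that set holds only mt-Cytb, so its complex I share is what mt-Cytb leaves. Within complex I, mt-Nd4 took 4.54% and 4.06% of the mRNA counts in the resting libraries and 4.92% and 4.70% in the activated ones. mt-Nd6 took 1.37% and 1.23%, then 1.65% and 1.45%. These groups also did not overlap, while the shares of mt-Nd1, mt-Nd2, mt-Nd3 and mt-Nd5 overlapped. The mt-Nd6 share may hold reads of the opposite strand, which was not tested. Such shares depend on each other, and a higher share is not a higher level. Of the tested complex I genes only mt-Nd6 had a log2 fold change above 0 (0.06), while mt-Co1 and mt-Cytb were at -0.26 and -0.24. mt-Co1 took 39.4% and 43.9% of the mRNA counts in the resting libraries and 37.6% and 42.7% in the activated ones. mt-Cytb took 28.96% and 26.1%, then 28.9% and 24.5%, so for both the groups overlapped.

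Ranked per kilobase of gene length, the mean CPM over the 4 libraries was 8504 for mt-Rnr2, 3561 for mt-Co1, 3229 for mt-Cytb, 1713 for mt-Nd1 and 1698 for mt-Rnr1. mt-Co1 and mt-Cytb were not separated, since their ranges met and mt-Co1 was the higher in 3 of 4 libraries. Neither were mt-Nd1 and mt-Rnr1. Then followed mt-Nd5 at 656, mt-Nd2 at 586, mt-Nd4 at 447, mt-Nd6 at 371 and mt-Nd3 at 180 CPM per kilobase. Because mt-Nd3 lies wholly inside the copied stretch, its level and its place in this order are uncertain. Among mt-Nd5, mt-Nd2, mt-Nd4 and mt-Nd6 the ranges of neighbours met, although their order was the same in all 4 libraries. Counted over the 1062 bases of mt-Co1 and the 502 bases of mt-Nd4 outside the copied stretch, a length chosen after the data were seen, the levels were 5181 and 1226 CPM per kilobase, which would put mt-Nd4 above mt-Nd5.

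Of the 22 tRNA genes, 17 lie outside the copied stretch and 5 inside it. Those outside summed to 675 and 1215 counts in the resting libraries and to 906 and 743 in the activated ones. Those inside, mt-Ts1, mt-Td, mt-Tk, mt-Tg and mt-Tr, summed to 7, 2, 7 and 3 counts in the same libraries. mt-Td and mt-Tk had 0 counts in all 4 libraries, and a count of 0 allows up to 3 counts, which is 0.0942 CPM in the largest library and 0.148 in the smallest. Annotated copies do not cover these tRNAs, and the bases between the copies were not compared.

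The tRNA for proline, mt-Tp (chrM:15356-15422, minus strand), was the most abundant tRNA, and its sequence is given beside that of the tRNA for aspartate, mt-Td (chrM:6942-7011), which had no count:
mt-Tp: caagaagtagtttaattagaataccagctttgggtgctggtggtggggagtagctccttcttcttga
mt-Td: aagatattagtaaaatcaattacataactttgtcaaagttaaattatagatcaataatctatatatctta
mt-Tp had 9.76 and 10.1 CPM in the resting libraries and 11.1 and 8.43 CPM in the activated ones. The groups overlapped, with a log2 fold change of -0.03 (SE 0.29, edgeR adjusted p = 0.998). The next tRNA genes were mt-Tl1, mt-Tq, mt-Tn, mt-Tc and mt-Te, which ranged from 2.18 to 4.29 CPM over the libraries. The remaining tested tRNAs, mt-Ta, mt-Tv, mt-Tf, mt-Tm, mt-Ti, mt-Ty, mt-Th, mt-Ts2, mt-Tl2 and mt-Tt, ranged from 0.0654 CPM for mt-Th in activated A to 2.51 CPM for mt-Ta in activated B.

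Among the 16 tested tRNAs, 12 had a log2 fold change below 0 and 4 above 0, with a median of -0.34, and none passed the test. In mt-Tv, mt-Tl1, mt-Ts2 and mt-Tt the activated libraries both lay below the resting ones. The farthest from 0 was mt-Ts2, a serine tRNA, with 10 and 25 counts in the resting libraries and 3 and 9 in the activated ones, a log2 fold change of -1.11 (SE 0.82, edgeR adjusted p = 0.885). A cluster of neighbours, the histidine, serine and leucine tRNAs mt-Th, mt-Ts2 and mt-Tl2 (chrM:11546-11741), was low in the A libraries of both groups: mt-Th had 9 and 43 counts in the resting libraries and 2 and 26 in the activated ones. mt-Tl2 had 16 and 42 counts, then 7 and 29. mt-Tn and mt-Tc, which lie next to each other on the minus strand, were also lower in the A library of each group. mt-Tn had 2.18 and 4.21 CPM in the resting libraries and 2.74 and 4.29 CPM in the activated ones. mt-Te, between mt-Nd6 and mt-Cytb, ran with those genes and was the higher in A, with 3.88 and 3.06 CPM, then 3.66 and 2.22. The strand setting of the counting is not given, so reads of a tRNA and of a precursor from the opposite strand cannot be told apart.

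**Figure D4:**
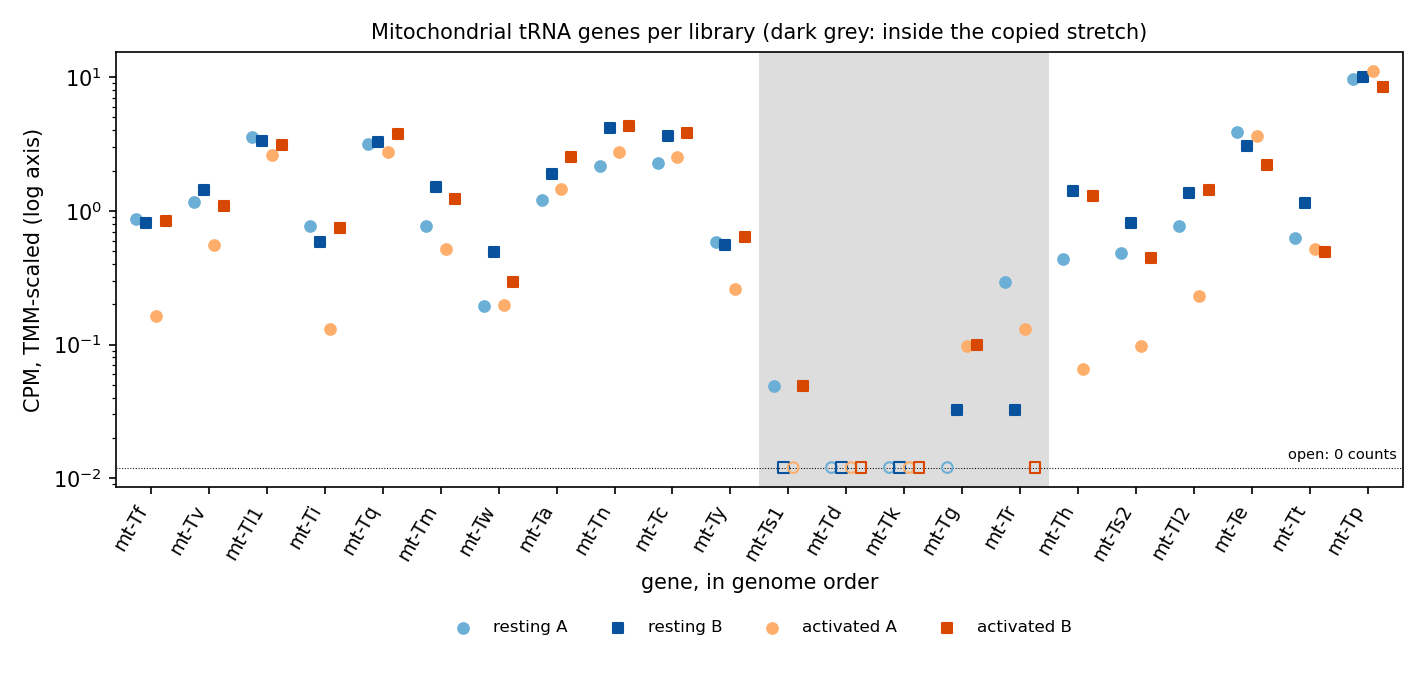
CPM (TMM-scaled, log axis) of the 22 tRNA genes in genome order, with a point for each library and open symbols for 0 counts. The 5 tRNA genes inside the copied stretch, shaded, have at most 6 counts in any library, mt-Tp has 8.43 to 11.1 CPM, and activated A is the lowest library for mt-Tf, mt-Ti, mt-Th, mt-Ts2 and mt-Tl2.

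The nuclear partners of these genes were read beside them. Summed over 78 nuclear genes of complexes I to V, all of them tested, 0 were called by edgeR or by DESeq2, and the median log2 fold change was 0.0047. The counts of mitochondrial mRNA over those of the nuclear subunits gave 1.38 and 0.980 in the resting libraries and 1.37 and 0.772 in the activated ones. The A library was the higher in each group, the groups overlapped (exact permutation p = 0.667), and the difference of -0.111 between the means turned to 0.186 without activated replicate B and to 0.088 without resting replicate A. The nuclear complex I list of 36 matched genes summed to 3242 and 4036 CPM in the resting libraries and to 3073 and 4250 CPM in the activated ones, the B library being the higher in each group, as it was in the lists for complexes II, III, IV and V.

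By name, the largest of each complex overlapped between the groups: Ndufa13 of complex I with a log2 fold change of 0.16 (SE 0.29), Sdha of complex II with 0.01 (SE 0.16), Uqcrh of complex III with -0.09 (SE 0.22), Cox4i1 of complex IV with -0.04 (SE 0.23) and Atp5a1 of complex V with -0.06 (SE 0.16). The list members with the smallest p were Ndufa6, Ndufs1 and Ndufs4 at -0.22, -0.27 and -0.17 on the log2 scale, and Sdhb and Sdhd at 0.03 and 0.05 beside Sdha. They were Uqcrfs1, Uqcr10 and Uqcrc2 at -0.28, 0.19 and -0.11 in complex III, Cox8a and Cox7b at 0.25 and -0.17 beside Cox7a2l in complex IV, and Atp5s, Atp5f1 and Atpif1 at 0.31, -0.18 and 0.27 in complex V. None of these passed the test. Cox7a2l, a factor in assembling respiratory supercomplexes, stood out by its values of 382 and 337 CPM in the resting libraries and 263 and 244 in the activated ones. The groups did not overlap, and the log2 fold change was -0.50 (SE 0.17) with an edgeR adjusted p of 0.477.

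Factors that make and handle mitochondrial RNA also gave 0 calls. Tfam, which packages mitochondrial DNA and starts its transcription, had 90.0 and 99.4 CPM in the resting libraries and 84.0 and 86.0 in the activated ones, a log2 fold change of -0.16 (SE 0.16). Polrmt, the mitochondrial RNA polymerase, had 26.3 and 26.1 CPM, then 24.2 and 28.3, with overlapping groups. Lrpprc, which stabilises mitochondrial mRNAs, had 27.1 and 20.1 CPM in the resting libraries and 24.3 and 18.9 in the activated ones, again higher in the A libraries. The edgeR adjusted p-values of the 3 were 0.952, 0.999 and 0.993.

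The 20 genes for transcription and replication had 6 log2 fold changes above 0 and 14 below, with a median of -0.06. That median changed direction, to 0.0088 without TMM scaling and 0.082 without activated replicate B, and was -0.22 without activated replicate A. The 29 genes for RNA processing, stability and decay had 10 above and 19 below, with a median of -0.11. The smallest p-values belonged to Rnaseh1, Dguok and Mterf4 in the former (-0.28, 0.23 and 0.24 on the log2 scale) and to Rexo2, Lactb2 and Trnt1 in the latter (-0.35, -0.36 and -0.29). The summed level of the processing list was 1180 and 1181 CPM in the resting libraries and 1094 and 1033 CPM in the activated ones, so the groups did not overlap. The 17 mitochondrial tRNA synthetases summed to 2947 and 3003 CPM, then 2748 and 3065. Most of each sum was Lars2 alone, at 2503 and 2581 CPM, then 2331 and 2683, so the sums say little about the other synthetases. Over the list 5 log2 fold changes were above 0 and 12 below, with a median of -0.06. The smallest p-values belonged to Iars2, Mars2 and Aars2, at -0.47, -0.61 and -0.44 on the log2 scale. None of these genes passed the test.

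The biogenesis regulators summed to 645 and 666 CPM in the resting libraries and to 568 and 561 CPM in the activated ones. Among them Myc, a transcription factor that drives cell growth, had 248 and 289 CPM in the resting libraries and 184 and 194 in the activated ones, with a log2 fold change of -0.51 (SE 0.17, edgeR adjusted p = 0.485). Of the difference of -90.7 CPM between the group means of the sums, Myc alone made -79.8. The median log2 fold change of the list was -0.084, and it was 0.0046 without resting replicate A. Yy1 and Ppargc1b had log2 fold changes of -0.27 and -0.34. Of the mitophagy genes, Optn, an autophagy receptor, had 0.728 and 1.04 CPM in the resting libraries and 2.22 and 3.94 in the activated ones, a log2 fold change of 1.70 (SE 0.53, edgeR adjusted p = 0.433). Pink1 and Bnip3l were at 0.26 and -0.19. Over the 161 tested genes of the 10 lists, edgeR and DESeq2 called 0, and 3 (1.86%) had an unadjusted p under 0.05, namely Optn, Cox7a2l and Myc, against 8.91% of all genes.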

How the data were processed

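RNA sequencing of 4 mouse spleen Treg libraries was used. Per the submitters' processing notes the tools were DESeq2, featureCounts and STAR (2.4.0c) and the build mm10, with no role stated; the sources used here do not give the annotation, strand setting or treatment of multiply mapped reads. The authors deposited raw counts per Ensembl gene, from featureCounts per the labels, and a table of regularized log2 values that the authors made with DESeq2. Symbols and sequences came from GENCODE M21; 37607 of 38924 identifiers matched. Count columns carry groups only; the log2 table carries replicate numbers.

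Genes kept by filterByExpr (minimum count 10, minimum total 15) numbered 14235. They were tested with edgeR 4.0.16 (R 4.3.3; TMM, quasi-likelihood F-test on group, prior count 2, Benjamini-Hochberg, threshold 0.05); the SE is the log2 fold change over the root of F. DESeq2 1.42.0 and limma 3.58.1 served as alternatives. Copies were found with blastn 2.17.0, at 85% identity over at least 60 bases. Shares used exact two-sided permutation tests. The p-values measure the spread between 2 libraries a group. Named were all mRNAs and rRNAs, tested tRNAs, per nuclear list the 3 members with the smallest p plus Tfam, Polrmt, Lrpprc and the most abundant subunit of each complex, and copies with a mean of at least 10 counts. The members and lists were chosen with earlier results of these data known.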

Additional observations from a re-analysis of the deposited data

How the results depend on the processing

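The number of called members stayed at 0 under library totals without TMM, scaling without the mitochondrial genes, no filter on low counts, DESeq2, limma with voom weights, limma on the regularized log2 values with and without a replicate block, and each library left out. The number of called genes rose from 0 to 852 without a filter, 442 with DESeq2 and 1552 (1027 higher, 525 lower) with the replicate block, and ran from 0 to 370 with a library left out; the cause was not tested. The labels do not say that a replicate number marks a shared batch, and there are 2 pairs, so the numbers were not used to pair samples. The differences between numbers 1 and 2 correlated between the groups over 14235 genes (Pearson 0.652, Spearman 0.610; genes are not independent), and the smallest adjusted p of a member with the block was 0.179, for mt-Rnr1.

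Directions changed for values that passed no test. With each library left out, log2 fold changes ran from -0.58 to 0.040 for mt-Cytb, -0.47 to 0.097 for mt-Nd2, -0.29 to 0.17 for mt-Nd4, -0.37 to 0.25 for mt-Nd5 and -0.26 to 0.32 for mt-Nd6. For tRNAs the ranges were -0.085 to 0.67 (mt-Ta), -0.23 to 0.45 (mt-Tc), -0.62 to 0.070 (mt-Te), -2.86 to 0.50 (mt-Th), -1.89 to 0.12 (mt-Ti), -1.94 to 0.39 (mt-Tl2), -1.04 to 0.14 (mt-Tm), -0.26 to 0.65 (mt-Tn), -0.23 to 0.15 (mt-Tp), -0.21 to 0.23 (mt-Tq) and -0.94 to 0.16 (mt-Ty). For nuclear genes they were -0.15 to 0.0055 (Atp5a1), -0.37 to 0.023 (Atp5f1), -0.27 to 0.69 (Atpif1), -0.33 to 0.21 (Cox4i1), -0.044 to 0.50 (Cox8a), -0.34 to 0.098 (Lrpprc), -0.21 to 0.46 (Ndufa13), -0.38 to 0.022 (Ndufs4), -0.12 to 0.12 (Polrmt), -0.71 to 0.12 (Ppargc1b), -0.061 to 0.080 (Sdha), -0.31 to 0.30 (Sdhb), -0.21 to 0.28 (Sdhd), -0.18 to 0.48 (Uqcr10), -0.28 to 0.044 (Uqcrc2) and -0.35 to 0.13 (Uqcrh). Without TMM, mt-Nd4, mt-Nd5, mt-Tp, Cox4i1 and Atp5a1 were at 0.020, 0.038, 0.041, 0.018 and 0.00038. Without a filter, mt-Tq, Sdha, Sdhb and Polrmt were at -0.016, -0.026, -0.016 and -0.033. Limma with voom weights gave -0.024 for mt-Tq and -0.011 for Polrmt, and limma on the regularized log2 values gave -0.0015 for Sdha and -0.0091 for Polrmt, with or without the replicate block. Per-kilobase and copy-free versions changed the level of the shares (resting mean of complex I from 30.8% to 35.6% and 48.6%), while the differences between the groups moved by less than the SD within groups; that of the mitochondrial over nuclear mRNA ratio went from -0.111 to -0.154 and -0.046. Low counts inside the copied stretch limit 5 mRNAs and 5 tRNAs, and the level of mt-Nd3, also inside it, is uncertain.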
